A study of Caenorhabditis elegans with 6 samples.

Results

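The Argonaute genes examined here are 10 genes of the nematode Caenorhabditis elegans that were listed by name: alg-1, alg-2, prg-1, csr-1, wago-1, wago-4, hrde-1, nrde-3, ergo-1 and sago-2. They are 10 of the 14605 worm gene rows in the deposited count table, and each of the 10 has a row. They were set into 5 germline members (prg-1, csr-1, wago-1, wago-4 and hrde-1) and 5 others (alg-1, alg-2, nrde-3, ergo-1 and sago-2), called somatic members for short. That name is loose for ergo-1, which is known from oocytes and embryos. RNA was counted in 3 intestinal cell libraries and in 3 from non-intestinal cells dividing in the first larval stage, L1. Each library came from a pool of 500 sorted cells with a 4N DNA content. All animals carried the transgene ccyIS27, in which the promoter of the intestinal GATA factor gene elt-2 (elt-2p) drives mCherry, fused to the membrane-binding PH domain and, after a P2A peptide, to histone H2B. The labels name no cell type within the non-intestinal pools and no other allele.

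Argonaute proteins hold a small RNA and use it to find a matching transcript. In C. elegans the family is unusually large. Members of the AGO branch bind microRNAs or primary 26G RNAs, the Piwi protein PRG-1 binds piRNAs, and worm-specific Argonautes bind secondary 22G RNAs copied by RNA-dependent RNA polymerases. Germline Argonautes are known for silencing foreign sequence, licensing germline transcripts and carrying silencing to the next generation. Somatic members are known for microRNA repression and for RNAi in body tissues.

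Worm gene counts per library ranged from 1222704 to 21040813, and replicate 3 had the lowest depth in both groups. The 10 Argonaute genes together had 3372, 5751 and 163 counts in intestinal libraries, against 6774, 21162 and 1905 in non-intestinal ones. These were 0.0199%, 0.0273% and 0.0133% of worm gene counts in intestinal libraries, and 0.138%, 0.106% and 0.121% in non-intestinal libraries. Levels below are CPM, counts scaled to a common library total, with totals adjusted for composition by the TMM method. Values per library follow the order of replicates 1, 2 and 3 in each group. The gene elt-2, whose promoter drives the transgene, had 42.6, 38.1 and 59.3 CPM in intestinal and 0.159, 1.73 and 0 CPM in non-intestinal libraries. The mCherry reporter itself had 147, 92 and 4 counts against 1, 0 and 0. All 11 tested intestinal markers were called higher in intestinal cells. Tests are edgeR quasi-likelihood tests with Benjamini-Hochberg adjustment over 9203 tested genes, and called genes are those with an adjusted p under 0.05. Levels are compared between libraries and not between genes, and sums and shares over genes are likewise compared between libraries.

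The 5 germline Argonaute genes, of 9 members tested, were all called lower in intestinal cells, from 8.45-fold for hrde-1 to 25.4-fold for wago-4. None of the 4 tested somatic members was called, and sago-2 was too rare to test. The filter keeps a gene that is abundant in either group. Of all tested genes 21.2% were called, 7.64% lower and 13.5% higher. In CPM the intestinal libraries lay entirely below the non-intestinal ones for 6 of the 9 tested members, which holds for 23.5% of all tested genes. They lay entirely above for 1 member, alg-1, as for 21.9% of all tested genes. The median log2 fold change was −3.42 for the germline members and −0.65 for the tested somatic members, beside −0.34 for all tested genes. Without ergo-1 the somatic median would be the value of alg-2, −0.35. The same 5 were called lower when libraries were scaled by RLE or by totals alone.

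**Figure D1:**
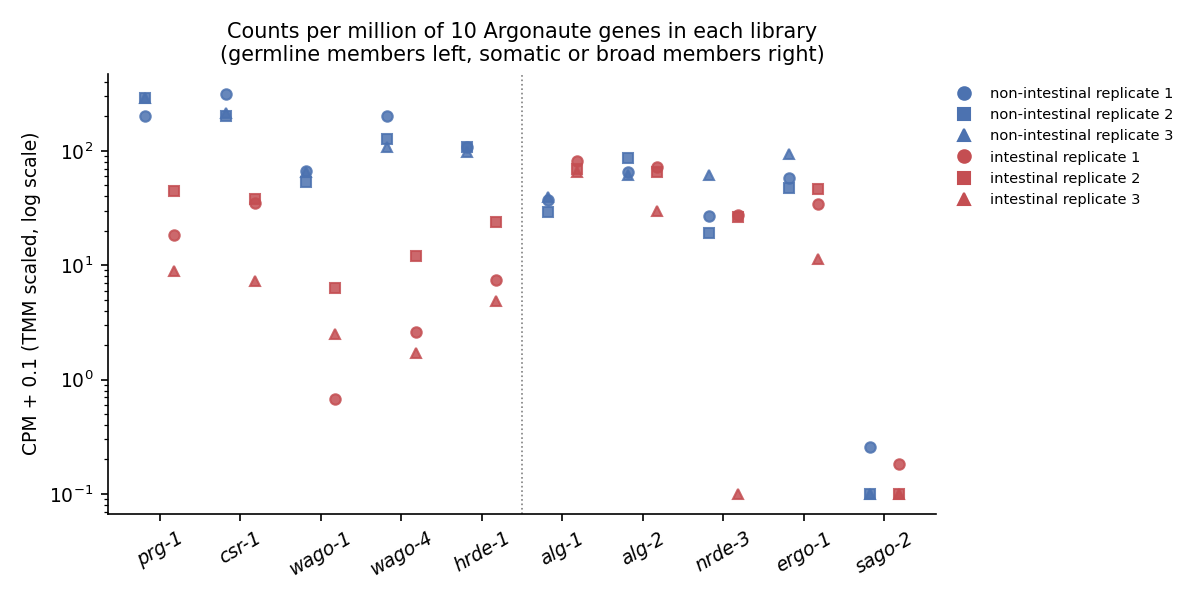
Level of each Argonaute gene in each library, as CPM plus 0.1 on a log scale, with non-intestinal libraries in blue, intestinal libraries in red and the symbol giving the replicate. For the 5 germline genes on the left each red point lies below each blue point, alg-1 shows the opposite order, and sago-2 lies near 0 in both groups.

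The gene prg-1 (D2030.6, chromosome I, 7585329 to 7588367, minus strand, WBcel235) encodes the Piwi protein that binds piRNAs, a class of genome-encoded germline small RNAs. It had 222, 775 and 11 counts in intestinal libraries, against 1254, 6382 and 538 in non-intestinal ones. As levels these were 18.4, 44.6 and 8.81 CPM against 200, 290 and 292 CPM, so the groups lay far apart, with intestinal replicate 2 the highest of its group. Its log2 fold change was −3.42 ± 0.67 (SE) at an edgeR adjusted p of 0.0055. It stayed called whichever of the 6 libraries was left out. Without intestinal replicate 2 the log2 fold change was −4.19. At equal depth, with the counts of each library thinned at random to the smallest total, it was −2.68. Near its 3′ end prg-1 overlaps D2030.12 on the opposite strand by 12 bases, and that gene had at most 42 counts in any library.

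The gene csr-1 (F20D12.1, chromosome IV, 7957267 to 7962157, plus strand) encodes an Argonaute whose 22G RNAs match germline-expressed transcripts and which is essential for fertility. It had 418, 654 and 9 counts in intestinal libraries, against 1989, 4419 and 397 in non-intestinal ones. The levels were 34.7, 37.7 and 7.21 CPM against 317, 201 and 216 CPM. Every intestinal library was below every non-intestinal one, and intestinal replicate 3 was the lowest, on 9 counts. Its fitted difference on the log2 scale was −3.18 ± 0.67 (SE) at an edgeR adjusted p of 0.0081, and the call held whichever of the 6 libraries was left out. It was −3.77 under library totals alone. The annotation gives csr-1 3 transcripts, which gene counts do not separate. The gene frpr-10, which was not analysed here, overlaps 4354 bases of it on the same strand.

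The genes wago-1 and wago-4 encode Argonautes of secondary 22G RNAs. WAGO-1 silences transposons and other germline targets, and WAGO-4 takes part in the inheritance of RNAi. The gene wago-1 (R06C7.1, chromosome I, 7235384 to 7238792, plus strand) had 7, 107 and 3 counts in intestinal libraries, against 417, 1166 and 121 in non-intestinal ones. Its levels were 0.582, 6.16 and 2.40 CPM in intestinal and 66.5, 53.0 and 65.8 CPM in non-intestinal libraries. The non-intestinal libraries were close to each other, while intestinal values differed widely and rested on few counts in replicates 1 and 3. The fitted log2 difference was −4.29 ± 0.92 (SE) at an edgeR adjusted p of 0.0086. At equal depth this was −3.21 and the call was lost (edgeR adjusted p = 0.128), while without intestinal replicate 2 it was −5.68 and the gene was called.

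The gene wago-4 (F58G1.1, chromosome II, 12919551 to 12923377, plus strand) had the largest decrease of the 10 genes. It had 30, 208 and 2 counts in intestinal libraries, against 1266, 2790 and 200 in non-intestinal ones. The levels were 2.49, 12 and 1.60 CPM against 202, 127 and 109 CPM. The groups did not overlap, and intestinal replicate 2 was again the highest of its group. For wago-4 the fitted log2 difference was −4.67 ± 0.85 (SE) at an edgeR adjusted p of 0.0038, or −6.03 without intestinal replicate 2 and −6.62 at equal depth. The call held whichever of the 6 libraries was left out.

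The gene hrde-1 (C16C10.3, chromosome III, 4172337 to 4176159, minus strand) encodes a nuclear Argonaute needed for silencing that passes between generations. It had 88, 413 and 6 counts in intestinal libraries, against 671, 2387 and 178 in non-intestinal ones. The levels were 7.31, 23.8 and 4.81 CPM in intestinal libraries and 107, 108 and 96.8 CPM in non-intestinal libraries. Non-intestinal replicates were nearly equal, and the intestinal ones all lay below them. This gave a log2 fold change of −3.08 ± 0.73 (SE) at an edgeR adjusted p of 0.0133, or −4.03 without intestinal replicate 2. Without intestinal replicate 1 the gene was no longer called, at a log2 change of −2.78 (edgeR adjusted p = 0.0656), and 4 of the 5 germline members then passed.

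Germline markers were lower in the same libraries. Of 14 tested germline markers 13 were called lower, with log2 fold changes from −3.27 for xnd-1 to −7.82 for oma-2 (edgeR adjusted p from 0.0006 to 0.0345). They were the germ granule genes pgl-1, pgl-3, glh-1, glh-2, glh-4 and deps-1, the RNA regulators nos-1, oma-2, fbf-1 and fbf-2, and glp-1, xnd-1 and mes-4. The list median was −4.05, and the number called lower was 6 without intestinal replicate 1 and 10 without replicate 3 of both groups. Their summed level was 24.7, 154 and 45.7 CPM in intestinal libraries, against 950, 1496 and 1318 CPM in non-intestinal ones. The 5 germline Argonautes summed to 63.6, 124 and 24.8 CPM and to 892, 779 and 780 CPM in the same order. Both sums were thus highest in replicate 2 among the intestinal libraries. The order of replicates 1 and 3 differed, as the marker sum was lower in replicate 1 and the Argonaute sum was lower in replicate 3. Within the list, counts in intestinal libraries ranged from 0 in each for nos-2, and 0, 5 and 1 for glp-1, to 97, 1038 and 4 for deps-1. The germ granule gene pgl-1 had 29, 339 and 1 counts there, so germline transcripts were counted in each intestinal library. The part of germ cells in the Argonaute differences was not tested, and in such pools fewer cells of a type and less RNA per cell cannot be told apart.

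**Figure D2:**
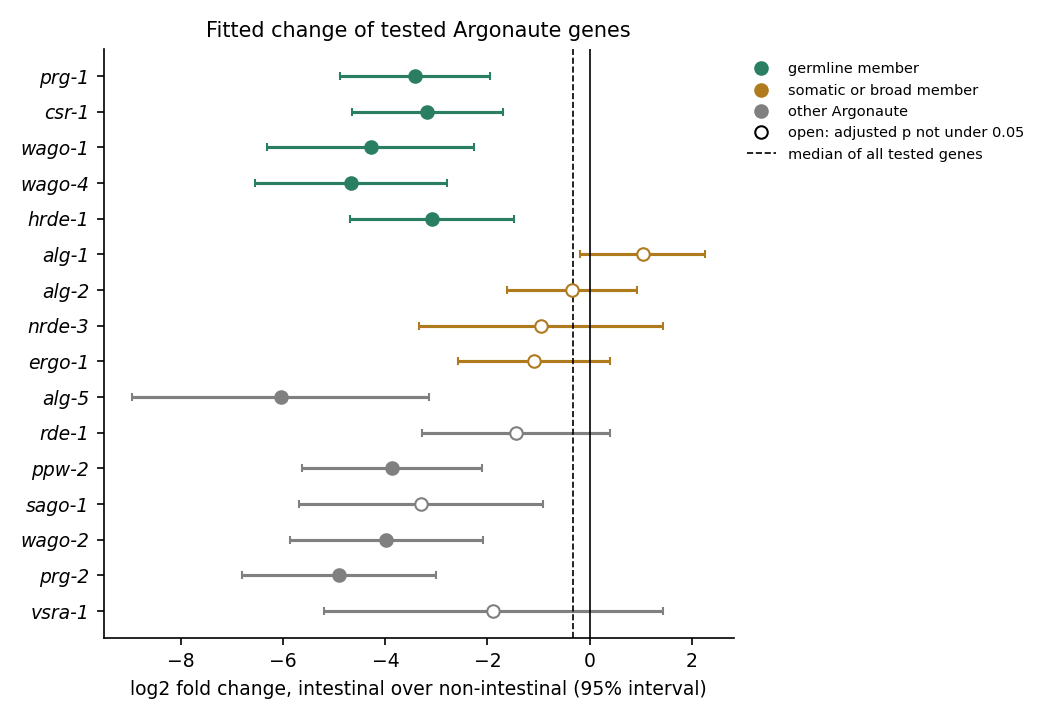
Fitted log2 fold change of intestinal over non-intestinal cells for the 16 tested Argonaute genes, with 95% intervals and filled points for called genes. The intervals of the 5 germline members (green) end below 0, whereas those of the 4 somatic or broad members (ochre) span it.

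Among the somatic members, alg-1 and alg-2 encode the main microRNA Argonautes of the body. The gene alg-1 (F48F7.1, chromosome X, 13949110 to 13956261, plus strand) had 988, 1200 and 81 counts in intestinal libraries, against 233, 641 and 72 in non-intestinal ones. Its levels were 82.1, 69.1 and 64.9 CPM in intestinal and 37.1, 29.1 and 39.1 CPM in non-intestinal libraries. It was the only 1 of the 10 genes for which each intestinal library lay above each non-intestinal library. The log2 fold change was 1.04 ± 0.55 (SE, 95% interval −0.18 to 2.26), which did not pass the test (edgeR adjusted p = 0.212). DESeq2 gave 1.13 and called it (DESeq2 adjusted p = 0.0446), where 18.2% of all genes were called higher. Under library totals alone the log2 fold change was 0.54, and at equal depth it was 0.45.

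The gene alg-2 (T07D3.7, chromosome II, 873212 to 879885, plus strand) had 877, 1137 and 37 counts in intestinal libraries, against 413, 1923 and 114 in non-intestinal ones. The levels were 72.9, 65.5 and 29.6 CPM against 65.8, 87.4 and 62 CPM. The groups overlapped, with intestinal replicate 3 the lowest library. The log2 fold change was −0.35 ± 0.58 (SE, 95% interval −1.63 to 0.93, edgeR adjusted p = 0.699). It became 0.10 without non-intestinal replicate 2 and 0.20 at equal depth, so that its direction was not fixed.

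The balance between these paralogs can be read within a library, where scaling plays no part. Of the counts of alg-1 plus alg-2, alg-1 took 53.0%, 51.3% and 68.6% in intestinal libraries (95% Wilson intervals 50.7 to 55.2, 49.3 to 53.4 and 59.8 to 76.3). It took 36.1%, 25% and 38.7% in non-intestinal ones (32.5 to 39.8, 23.4 to 26.7 and 32 to 45.9). The mean share was 57.6% ± 9.54 in intestinal against 33.3% ± 7.28 in non-intestinal cells (SD, n = 3 each). The groups did not overlap, and this difference was not tested. As related genes, alg-1 and alg-2 may share reads, and the counting rule for such reads is not given in the sources used here.

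The gene nrde-3 (R04A9.2, chromosome X, 372235 to 376900, plus strand) encodes the Argonaute that carries 22G RNAs into somatic nuclei. It had 327, 456 and 0 counts in intestinal libraries, against 170, 421 and 112 in non-intestinal ones. The levels were 27.2, 26.3 and 0 CPM against 27.1, 19.1 and 60.9 CPM. Replicates 1 and 2 of both groups were alike, and replicate 3 was the lowest library in one group and the highest in the other. A count of 0 in intestinal replicate 3 allows up to 2.40 CPM. The log2 fold change was −0.96 ± 1.08 (SE) at an edgeR adjusted p of 0.561, and without replicate 3 of both groups it was 0.22 (edgeR adjusted p = 0.823). It was −0.18 without non-intestinal replicate 3, −1.57 under library totals alone and −2.71 at equal depth.

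The gene ergo-1 (R09A1.1, chromosome V, 1008803 to 1018352, plus strand) encodes the Argonaute of 26G RNAs in oocytes and embryos, which act upstream of 22G RNAs. It had 414, 801 and 14 counts in intestinal libraries, against 360, 1033 and 173 in non-intestinal ones. The levels were 34.4, 46.1 and 11.2 CPM against 57.4, 46.9 and 94.0 CPM. The highest intestinal library lay just under the lowest non-intestinal one, so the groups touched without overlapping. The fitted log2 change was −1.09 ± 0.68 (SE, 95% interval −2.58 to 0.40, edgeR adjusted p = 0.281). Without replicate 3 of both groups it was −0.36.

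The gene sago-2 (F56A6.1, chromosome I, 618160 to 621490, plus strand), a secondary-siRNA Argonaute named for synthetic action in RNAi, had 1 count in intestinal replicate 1, 1 in non-intestinal replicate 1 and 0 in the other 4 libraries. It did not pass the filter on low counts and has no fold change. In the deepest library by scaled total, non-intestinal replicate 2, a count of 0 allows up to 0.136 CPM. The whole gene lies opposite eme-1, which had 35, 86 and 9 counts in intestinal and 58, 276 and 108 in non-intestinal libraries.

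With 0 of 4 tested somatic members called by edgeR, 0 had an unadjusted p under 0.05, and DESeq2 called 1. The share of all tested genes with an unadjusted p under 0.05 was not counted. It is at least the 21.2% that were called. In simulated counts the edgeR fit called 1.02% of genes with a true absolute log2 change of 2. A missing call thus does not show equal levels. The smallest absolute log2 fold change among all called genes was 1.12, and the values of all 4 tested somatic members were smaller than this. Summed over the somatic members, the level was 217, 207 and 106 CPM in intestinal and 188, 183 and 256 CPM in non-intestinal libraries, so the groups overlapped. Intestinal replicate 3, the lowest for this sum, was also the lowest in summed muscle markers, at 950 CPM against 4532 and 2510 CPM in intestinal replicates 1 and 2. In non-intestinal libraries the muscle sum was 7769, 3856 and 2511 CPM. Of 8 tested muscle markers 0 were called by edgeR, 1 had an unadjusted p under 0.05 and DESeq2 called 1. With the replicate block 3 were called lower, unc-15, mlc-3 and lev-11 (edgeR adjusted p = 0.0162, 0.0236 and 0.0288). The muscle myosin gene unc-54 had 1464, 1054 and 692 CPM in intestinal libraries, and myo-3 had at most 1 count in any of the 6 libraries. Neuronal markers summed to 237 CPM in intestinal replicate 3 against 663 and 867 CPM in replicates 1 and 2, with 540, 460 and 344 CPM in non-intestinal libraries and 1 of 10 called, higher. Epidermal and seam markers summed to 70.8, 113 and 48.9 CPM against 336, 313 and 459 CPM, with 1 of 7 called lower and 1 higher, or 2 lower and 0 higher with the replicate block. The part of these cells in the somatic values was not tested.

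The contrast of germline and somatic members was also seen within single libraries. The germline members made up 22.7%, 37.5% and 19.0% of the counts of the 10 genes in intestinal libraries (95% Wilson intervals 21.3 to 24.1, 36.3 to 38.8 and 13.7 to 25.7). In non-intestinal replicates they made up 82.6%, 81.0% and 75.3% (81.7 to 83.5, 80.5 to 81.5 and 73.3 to 77.2). The mean was 26.4% ± 9.79 against 79.6% ± 3.84 (SD, n = 3 each), and the groups lay far apart. Since wago-1, wago-4 and the other germline genes were each lower, this share restates those differences without the scaling of libraries.

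**Figure D3:**
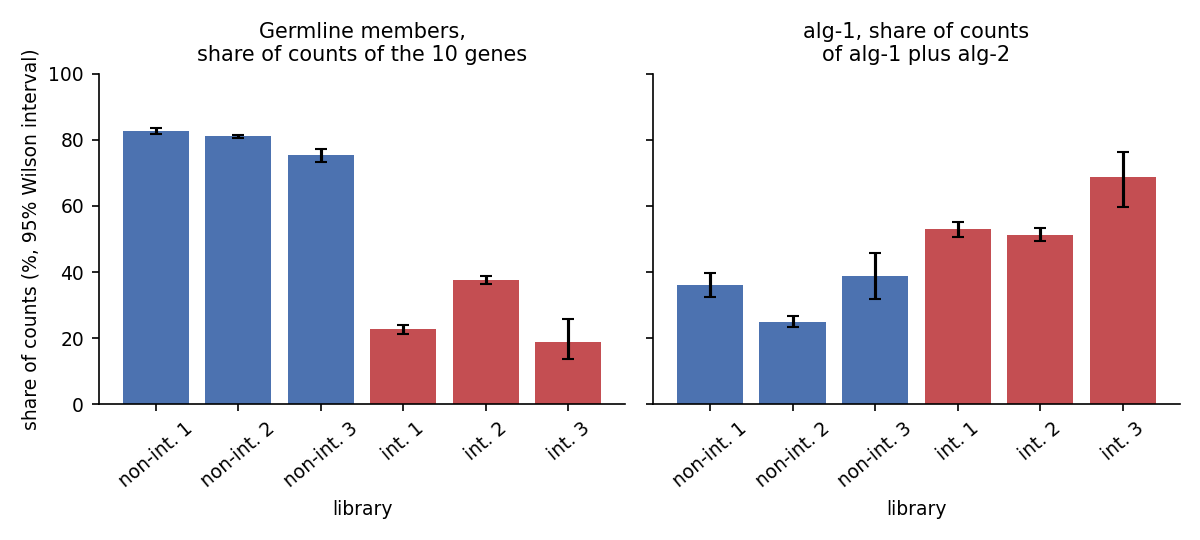
Share of counts within each library, in percent with 95% Wilson intervals, for the germline members among the 10 genes (left) and for alg-1 among alg-1 plus alg-2 (right). Germline members hold 75.3% or more in non-intestinal libraries (blue) and at most 37.5% in intestinal libraries (red), and the alg-1 share is higher in each red bar than in any blue bar.

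The members lie on different chromosomes. None of the 5 germline members lies on the X chromosome, whereas alg-1 and nrde-3 do. Among the tested genes with a known chromosome, 13.5% were X-linked, compared with 2.44% of the genes called lower and 21.6% of those called higher in intestinal cells.

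Other Argonaute genes were examined for context. Of 13 listed, 10 had a row, 7 were tested, 4 were called lower and 0 were called higher. By DESeq2 5 were lower, where 15% of all genes were called lower, and 0 higher. The 4 were alg-5, ppw-2, wago-2 and prg-2. Germline-expressed alg-5 (T23D8.7), a relative of the microRNA Argonautes, had 0, 14 and 0 counts in intestinal libraries, against 171, 451 and 51 in non-intestinal ones, with a log2 fold change of −6.05 ± 1.32 (SE) at an edgeR adjusted p of 0.0093. Without intestinal replicate 1 it was −5.35, with the replicate block it was −6.72, and without intestinal replicate 2 both remaining intestinal libraries had 0 counts, so the size of the decrease is uncertain. Its relatives alg-1 and alg-2 had log2 fold changes of 1.04 and −0.35.

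The Piwi paralog prg-2 (C01G5.2), annotated by RefSeq as a pseudogene, had 22, 126 and 1 counts in intestinal libraries, against 719, 1619 and 254 in non-intestinal ones. Its log2 fold change was −4.90 (edgeR adjusted p = 0.0033), or −6.15 without intestinal replicate 2, beside −3.42 for prg-1. RefSeq lists wago-2 (F55A12.1) as a pseudogene too, and its log2 fold change was −3.98 (edgeR adjusted p = 0.0088), beside −4.29 for wago-1. Without intestinal replicate 3 wago-2 had −4.84, and −4.70 without replicate 3 of both groups. At equal depth its log2 fold change was −3.94, close to that with all counts, and the call was lost (edgeR adjusted p = 0.0536). Both are paralogs of a member, and how reads shared by paralogs were assigned is not given in the sources used here, so their counts are uncertain. The germline 22G Argonaute ppw-2 (Y110A7A.18) fell from 180 ± 29.6 to 11.8 ± 12.4 CPM (SD, n = 3 each), a log2 change of −3.87 (edgeR adjusted p = 0.0071), or −5.15 without intestinal replicate 2 and −4.55 at equal depth.

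The remaining other Argonautes were not called. The secondary Argonaute sago-1 had a log2 change of −3.31 (edgeR adjusted p = 0.0520). It was called with the replicate number as a block, at −4.02 (edgeR adjusted p = 0.0224), where 9.86% of all genes were called lower. It was also called under RLE, library totals alone, no filter and DESeq2, and without replicate 3 of both groups. At equal depth it was not called (edgeR adjusted p = 0.115), and with 1 library left out it was called in 2 of 6 fits. With single libraries left out its values ran from −4.83 without intestinal replicate 2 to −2.53 without non-intestinal replicate 1. The gene rde-1, which starts the response to foreign double-stranded RNA, had −1.44 (edgeR adjusted p = 0.250), with overlapping groups, or −0.21 without non-intestinal replicate 3. It had 5.82, 11.6 and 18.4 CPM in intestinal libraries, against 21.5, 12.7 and 62 CPM in non-intestinal ones. The gene vsra-1 had at most 93 counts in a library and a log2 change of −1.89 (edgeR adjusted p = 0.404), or −3.40 without intestinal replicate 1 and −2.53 under library totals alone. The genes ppw-1, wago-10 and alg-3 did not pass the filter, with at most 16, 1 and 1 counts in any library, and alg-4, wago-5 and wago-11 were not analysed here.

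The genes that make or process the small RNAs were examined by pathway. In the piRNA list 9 of 16 tested genes were called lower and 0 higher, and the median log2 fold change was −2.88, or −2.78 with pid-5 at its bound. DESeq2 also called 0 higher and it called 14 lower, and the count of lower genes was 2 without intestinal replicate 1. The factors prde-1 (−3.83) and snpc-4 (−2.57) serve piRNA transcription. Precursor processing genes were also lower, namely tofu-1 (−3.19), tofu-2 (−4.19), tofu-6 (−2.52), pid-3 (−2.29) and the trimming exonuclease parn-1 (−4.83). The remaining called genes were pid-2 (−3.67) and pid-5, which had 0 counts in each intestinal library and was at least 7.94-fold lower there. These values are log2 fold changes with edgeR adjusted p from 0.0057 for tofu-2 to 0.0428 for tofu-6, and tofu-6 was not called with the replicate block (edgeR adjusted p = 0.0501). The list member trd-1 had a positive log2 fold change of 0.59, which did not pass.

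Genes of 22G RNA synthesis had a median log2 fold change of −1.79, with 1 of 15 tested genes called lower and 0 higher. DESeq2 called 8 lower and 0 higher, and with the replicate block 2 were called lower. The called gene was ego-1 (F26A3.3), the germline RNA-dependent RNA polymerase, which had 6, 23 and 0 counts in intestinal libraries, against 152, 139 and 38 in non-intestinal ones. Its log2 fold change was −4.48 ± 1.16 (SE) at an edgeR adjusted p of 0.0199. Without intestinal replicate 1 no gene of the list was called. The polymerase rrf-1, which acts in somatic tissue, had −1.10 (edgeR adjusted p = 0.405), with 9.56, 8.87 and 25.6 CPM in intestinal and 22.3, 8.09 and 63.1 CPM in non-intestinal libraries. Whether ego-1 and rrf-1 differ from each other was not tested.

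Among 26G RNA genes 0 of 9 tested were called in either direction by edgeR, 4 had an unadjusted p under 0.05, all lower, and DESeq2 called 3 lower. Their median was −1.61. In the nuclear RNAi list 1 of 7 was called lower, nrde-4, with a log2 change of −2.51 (edgeR adjusted p = 0.0473), and 0 were called higher by edgeR or DESeq2. DESeq2 called 5 lower, 6 had an unadjusted p under 0.05 by edgeR, all lower, and the median was −2.29. The share of all tested genes at that unadjusted threshold was not counted, so the 4 and the 6 have no background beside them. With the replicate block set-25 was called lower (edgeR adjusted p = 0.0199). The call of nrde-4 was lost with the block (edgeR adjusted p = 0.0531) and whichever of the 6 libraries was left out. In the microRNA list 2 of 10 were called lower and 0 higher, with a median of −1.20. These were pash-1, the partner of the Drosha nuclease, at −2.77 (edgeR adjusted p = 0.0470), and the helicase gene cgh-1 at −1.76 (edgeR adjusted p = 0.0215). The call of pash-1 was lost with the replicate block (edgeR adjusted p = 0.0582) and whichever of the 6 libraries was left out, while cgh-1 was called in 2 of those 6 fits. Without replicate 3 of both groups 0 microRNA genes were called. Of the microRNA effector genes that bind ALG-1 and ALG-2, ain-1 had −0.70 (edgeR adjusted p = 0.438) and ain-2 had −0.36 (edgeR adjusted p = 0.627).

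**Figure D4:**
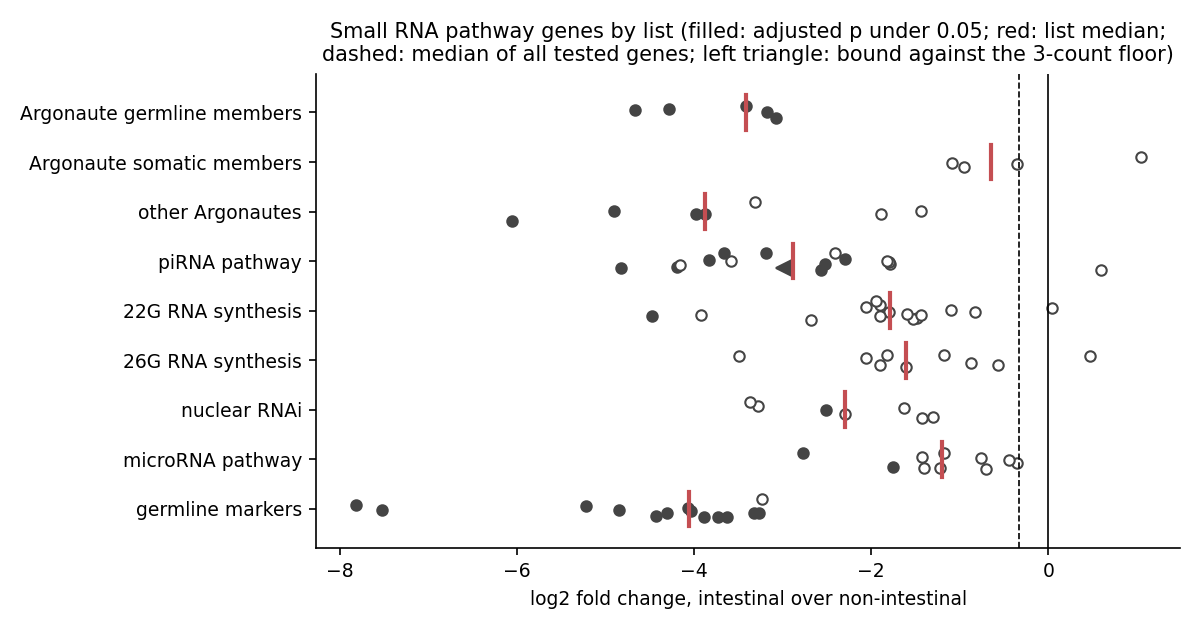
Fitted log2 fold change of each tested gene by list, with filled symbols for called genes, a red line at each list median, a left-pointing triangle for pid-5 at its bound and a dashed line at −0.34, the median of all tested genes. Germline Argonautes and germline markers lie furthest left by median together with the other Argonautes, and of the lists drawn the tested somatic Argonautes have the median nearest the dashed line.

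For each tested member the non-Argonaute gene with the most similar profile was found among 5839 candidates, as the distance between mean-centred log2 CPM over the 6 libraries. It was lin-42 for prg-1 (distance 0.33), san-1 for csr-1 (0.65), pgl-3 for wago-1 (0.63), fbxc-45 for wago-4 (0.64) and clc-6 for hrde-1 (0.33). For the somatic members it was mrps-26 for alg-1 (0.28), emg-1 for alg-2 (0.32), abi-1 for nrde-3 (1.03) and aipr-1 for ergo-1 (0.54). The germ granule gene pgl-3 is itself one of the germline markers above, whereas lin-42, san-1, fbxc-45 and clc-6 are on none of the marker lists. The profile of nrde-3 had the least close neighbour, and abi-1 likewise had 0 CPM in intestinal replicate 3.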

How the data were processed

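Per the labels, libraries followed an adapted CEL-seq protocol, which reads 3′ ends after amplification by in vitro transcription. Per the submitters' processing notes, STARsolo 2.7.10a and the builds WBcel235 and ce11 were used; strand and use of molecular identifiers are not given in the sources used here. The authors deposited raw counts of 15472 rows, of which 14605 worm gene rows entered totals and tests. Spike-in, reporter and RIT rows were left out, at most 0.782% of a library for RIT. RefSeq WBcel235 locus tags gave 14387 rows a symbol, used for names; positions are from Ensembl release 115, WBcel235.

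Intestinal and non-intestinal libraries were compared with edgeR 4.0.16 (R 4.3.3; robust quasi-likelihood F test, TMM, filterByExpr with minimum count 10 and total 15). DESeq2 1.42.0, other scalings, no filter, equal depth, left-out libraries and a replicate block were alternatives. Standard errors are the absolute fold change (log2) over the root of F. Wilson intervals and floors (3 counts per library; for a fold, the mean over the group) cover counting error only, whereas intervals of fold changes come from the edgeR fit and include the spread between libraries. Labels give biological replicates, and chi-square per degree of freedom within groups was 33.3 or more. Whether same-numbered libraries share a preparation is not given in the sources used here. Deviations of same-numbered libraries from group means correlated at 0.278, 0.157 and 0.279. Those of differently numbered libraries correlated at −0.256 to 0.0695. Replicate 3 had the lowest depth in both groups, and pairing was not tested apart from depth. The numbers were therefore taken as pairs in the replicate block and for the spread between replicate pairs. The main test did not use the pairs, and results are unpaired unless the block is named. With the block 2300 genes were called, against 1949 in the main fit.

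Named genes are all listed Argonautes, called pathway genes and germline markers, elt-2 and each member's nearest profile; further genes were chosen after values were seen. Members and lists were chosen with earlier results of these data known. The edgeR fit was tested on simulated counts with a dispersion of 0.5 for every gene. Of 9052 genes tested there, 98 had a true absolute log2 change of 2 and 98 one of 4. Far fewer genes were thus changed than were called in the data, so the shares called do not carry over. It called 1.02% of genes with a true absolute log2 change of 2 and 71.4% of those with 4. Of the genes called there, 4.05% were unchanged. The listed symbols mut-2, cde-1, ntl-1, tofu-3, eri-6, vit-6, bus-8, elt-5 and dpy-5 were not analysed here.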

Additional observations from a re-analysis of the deposited data

How the results depend on the processing

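The number of Argonaute members called lower was 5 and ranged from 4 to 5 over the alternatives. The exceptions among the 5 were wago-1 at equal depth and hrde-1 without intestinal replicate 1. The number called higher was 0, and 1 under DESeq2 (alg-1). The medians of both member groups moved by less than the SD between replicate pairs, which was 1.08 for germline and 1.27 for somatic members. The somatic SD is larger than the somatic median of −0.65 in size, so that limit is a loose one. The replicate block changed no call among the members. Over all genes, 1949 were called, 3057 under DESeq2, 955 at equal depth and from 986 to 1913 with 1 library left out. Genes called lower numbered 703, 1337 under library totals alone, 1379 under DESeq2, 284 at equal depth and from 198 (without intestinal replicate 1) to 647 with 1 library left out, including 380 and 350 without non-intestinal replicates 1 and 2. Genes called higher numbered 1246, 671 at equal depth and from 788 to 1393 with 1 library left out. Library totals alone moved the median of all genes from −0.34 to −0.84 and the higher share of calls from 63.9% to 44.3%. Directions reversed for alg-2 at equal depth (0.20) and without non-intestinal replicate 2 (0.10, in a range from −0.56 with 1 library left out), and for nrde-3 without replicate 3 of both groups (0.22), which also put the somatic median at 0.044; the cause was not tested. Precision in replicate 3 of each group is limited by its depth.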
